A study of Chlamydomonas reinhardtii with 6 samples.

Results

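A set of 9 genes of peroxide removal and of the ascorbate-glutathione cycle were followed in the unicellular green alga Chlamydomonas reinhardtii grown with 1000 µM manganese and with 6 µM manganese. They are PRX1, PRX2, CAT1, APX1, GPX5, MDAR1, DHAR1, VTC2 and GSTS1, listed by locus identifier under a rule that uses no measured value, and they make up 9 of the 17741 gene models in the deposited table. All 9 were present in the table. None was listed at 0 in any library and none had a mean under 1 FPKM (fragment counts scaled to transcript length and library size), so none was absent or low, and all 9 were tested. The table holds identifiers only, and the symbols are the customary names of these loci.

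The libraries were made from poly-A RNA of strain CC-4532, 3 cultures with 1000 µM manganese, labelled experimental, and 3 with 6 µM manganese, labelled control. All were 1 L flasks of acetate-containing Tris medium, seeded from a starter culture with 10000 cells in each mL and kept at 24 °C on a shaker (180 rpm). Continuous light was given at a photon flux near 50 µmol per square metre and second, and cells were collected in mid-logarithmic growth at 3000000 cells per mL. The flasks share 1 strain and may share 1 inoculum. The p-values therefore set the difference between groups against the spread between flasks that may be sister cultures. A bulk measurement of this kind cannot tell fewer cells that express a gene from less RNA per cell.

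Hydrogen peroxide forms wherever electrons leak to oxygen in chloroplasts and mitochondria, and superoxide dismutases, some of which carry manganese, produce it from superoxide. Catalase splits it directly, peroxiredoxins and glutathione peroxidase-like enzymes reduce it with electrons from thiols, and ascorbate peroxidase reduces it with ascorbate. Oxidised ascorbate is then returned to the reduced form by monodehydroascorbate reductase, which uses NAD(P)H, and by dehydroascorbate reductase, which uses glutathione. The comparison addresses whether the transcripts of this system differ when manganese is supplied in excess.

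The summed FPKM per library ranged from 629620 to 767912. The absolute depth is unknown, because FPKM does not keep it. The steps between low values gave 1.03, 0.713 and 0.851 reads per FPKM in 1000 µM replicates 1, 2 and 3, relative to 6 µM replicate 1, and 1.08 and 1.12 in 6 µM replicates 2 and 3. The libraries 1000 µM replicate 3 and 6 µM replicate 1 stood apart from the rest together. Across the 12543 tested genes, their deviations from their own group means correlated at 0.752, a value across genes and so only descriptive, since genes do not vary independently.

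Transcript levels of 8 of the 9 genes overlapped between 1000 µM and 6 µM manganese. DHAR1 was the exception. A separation of the groups, 1 of the 9 genes here, was seen in 8.04% of all tested genes and in 3.70% with 1000 µM below 6 µM, so this count is near the background. DHAR1 had a mean FPKM of 13.3 ± 2.73 in the 1000 µM cultures and 20.2 ± 3.02 in the 6 µM cultures (SD, n = 3 each). None of the 9 passed limma's moderated test at an adjusted p under 0.05 (Benjamini-Hochberg over all 12543 tested genes), with an adjusted p of 1.00 after rounding for each of them. None of the tested genes as a whole passed either, a background of 0% called. At an unadjusted p under 0.05 the count was 1 of the 9, DHAR1, which was lower at 1000 µM, against 2.82% of all tested genes in either direction and 1.75% in the lower direction. The median difference of log2(FPKM + 1) was 0.07 over the 9 genes and 0.01 over all tested genes.

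**Figure D1:**
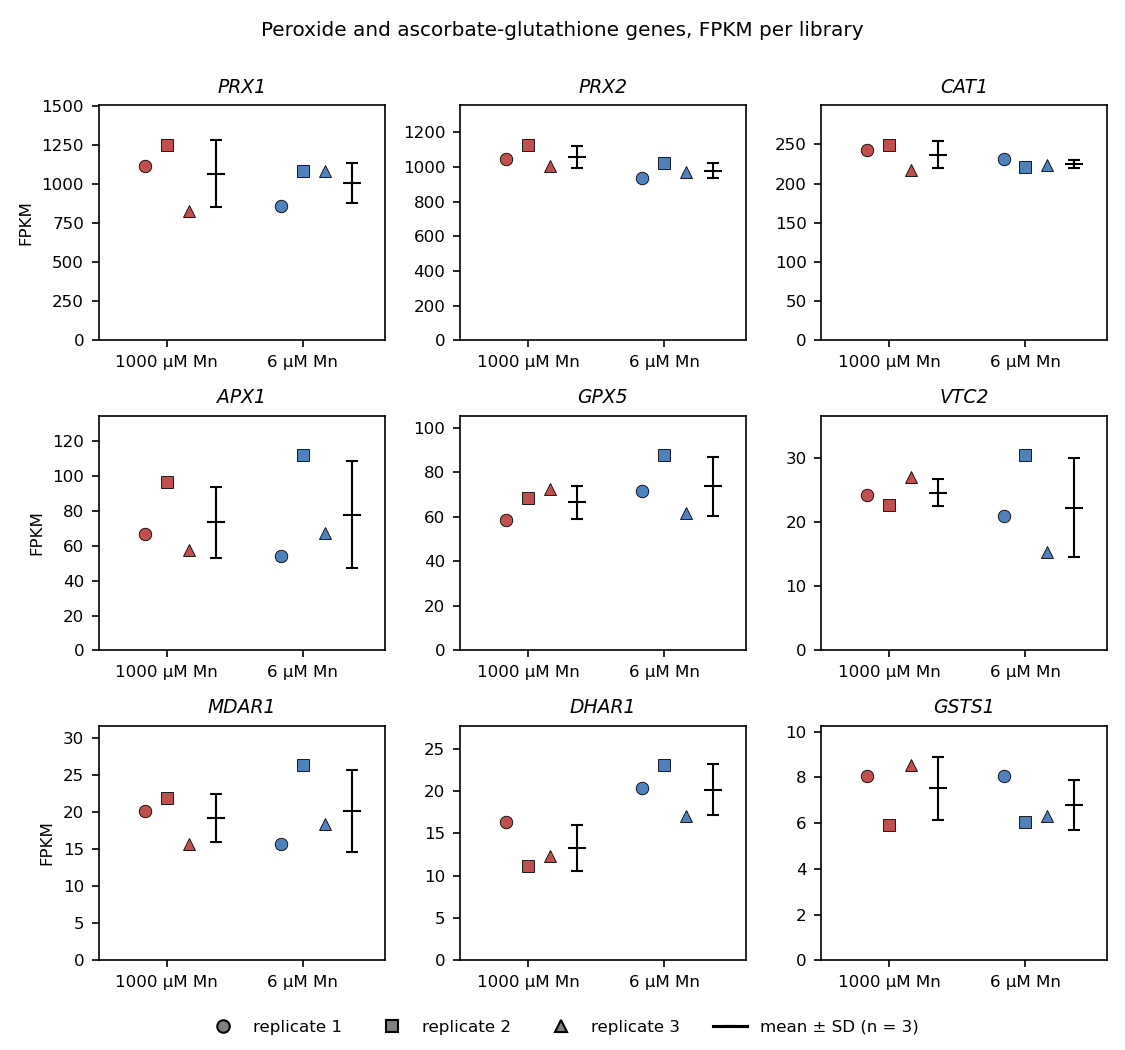
FPKM (vertical axes, from 0) of the 9 genes in each library, with 1000 µM manganese in red and 6 µM in blue, the replicate number as the symbol and the mean ± SD (n = 3) beside each group. The groups overlap in 8 panels, and in the DHAR1 panel all 3 libraries at 1000 µM, up to 16.3 FPKM, lie below all 3 at 6 µM, from 17.1 FPKM.

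The levels of the 9 genes, which FPKM makes comparable per transcript length, spanned a ratio of 145 between the most and the least abundant. The peroxiredoxins stood highest, at ranks 141 and 142 of all 17741 genes by mean FPKM, and the catalase gene followed at rank 356. APX1 and GPX5 formed the next step at ranks 864 and 924. VTC2, MDAR1 and DHAR1 lay at ranks 2329, 2706 and 3099, and GSTS1 was the least abundant at rank 5767. Between PRX1 and PRX2, between APX1 and GPX5, and along VTC2, MDAR1 and DHAR1 the neighbours in this order overlapped over the 6 libraries. The steps from PRX2 to CAT1, from CAT1 to APX1, from GPX5 to VTC2 and from DHAR1 to GSTS1 were clear in 6 of 6 libraries, with no overlap of the ranges.

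The peroxiredoxins PRX1 and PRX2 reduce peroxides at a reactive cysteine that thioredoxins restore. PRX1 (Cre06.g257601.v5.5, chromosome 6 from 1208195 to 1210042 of assembly v5.5) had 1113, 1250 and 829 FPKM in 1000 µM replicates 1, 2 and 3, against 856, 1081 and 1081 FPKM in 6 µM replicates 1, 2 and 3. The lowest value of each group came from the libraries that stood apart, and the groups overlapped. The mean log2 difference of PRX1 was 0.07 with a 95% interval from -0.33 to 0.47, which corresponds to 0.794 to 1.39 times the 6 µM level. PRX2 (Cre02.g114600.v5.5, chromosome 2 from 6290309 to 6292284) had 1047, 1128 and 1003 FPKM at 1000 µM, against 938, 1024 and 972 FPKM at 6 µM. The lowest 1000 µM library lay below the highest 6 µM library, so these groups overlapped too. The difference of PRX2 was 0.11, with an interval from -0.13 to 0.36 or 0.912 to 1.28 times the 6 µM level. The sources used here do not say how the counting divided reads between similar peroxiredoxin sequences. Both peroxiredoxin genes and CAT1 belong to the abundant class: the 677 tested genes that reached 100 FPKM on average had a median difference of 0.09, and the differences of 0.07 to 0.11 lie close to it. After scaling all libraries to one FPKM total that median was 0.0013, and PRX1 and CAT1 then stood at -0.0194 and -0.0188, while PRX2 stood at 0.03.

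The ratio of PRX1 to PRX2 within a library, which a scaling of the whole library leaves unchanged, was 1.06, 1.11 and 0.826 in 1000 µM replicates 1, 2 and 3 and 0.912, 1.06 and 1.11 in 6 µM replicates 1, 2 and 3. It was below 1 in 1000 µM replicate 3 and 6 µM replicate 1 and above 1 in the other 4 libraries. PRX2 was the steadier of the pair, with a coefficient of variation of 5.98% at 1000 µM and 4.42% at 6 µM, while that of PRX1 was 20.2% at 1000 µM and 12.9% at 6 µM.

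CAT1 (Cre09.g417150.v5.5, chromosome 9 from 7906771 to 7911464) encodes catalase, which turns hydrogen peroxide into water and oxygen without a reductant. It had 243, 249.7 and 218 FPKM at 1000 µM, against 231, 221 and 224 FPKM at 6 µM. Its 6 µM libraries all fell inside the range of the 1000 µM libraries. CAT1 was the steadiest of the 9 genes over the 6 libraries, its highest value being 1.15 times its lowest. Its log2 difference was 0.07 with an interval from -0.17 to 0.31, or 0.887 to 1.24 times the 6 µM level.

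APX1 (Cre02.g087700.v5.5, chromosome 2 from 1899262 to 1903342) encodes ascorbate peroxidase. It had 66.5, 96.4 and 57.6 FPKM at 1000 µM, against 53.9, 112.2 and 67.0 FPKM at 6 µM. The largest differences lay between replicates: within the 6 µM group the highest library had 2.08 times the lowest, and within the 1000 µM group 1.67 times. The SD of its log2(FPKM + 1) values over the 6 libraries was 0.42, at the 98.6th percentile of tested genes, against a median of 0.14 over all tested genes. The log2 difference of APX1 between manganese levels was -0.04, and its interval from -0.68 to 0.59 (0.618 to 1.52 times the 6 µM level) was the widest of the 9 genes.

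GPX5 (Cre10.g458450.v5.5, chromosome 10 from 5436288 to 5438246) encodes a glutathione peroxidase-like enzyme, known in this alga for its induction by singlet oxygen. It had 58.4, 68.5 and 72.5 FPKM at 1000 µM, against 71.5, 87.9 and 61.8 FPKM at 6 µM. The groups overlapped, the highest library being 6 µM replicate 2 and the lowest 1000 µM replicate 1. Its log2 difference was -0.14 with an interval from -0.48 to 0.21, or 0.711 to 1.16 times the 6 µM level. An annotated gene with a mean of 87.0 FPKM begins or ends 54 bp from GPX5, and the sources used here do not say whether strand was used in counting.

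Of the pair of genes that recycle ascorbate, MDAR1 overlapped between the groups and DHAR1 did not, and the difference between their changes was not tested. MDAR1 (Cre17.g712100.v5.5, chromosome 17 from 2075466 to 2080872), for monodehydroascorbate reductase, had 20.2, 21.9 and 15.7 FPKM at 1000 µM, against 15.7, 26.4 and 18.3 FPKM at 6 µM. The 1000 µM libraries lay inside the 6 µM range, apart from 1000 µM replicate 3, which lay just below the lowest 6 µM library. Its log2 difference was -0.05 with an interval from -0.49 to 0.40, or 0.696 to 1.34 times the 6 µM level.

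DHAR1 (Cre10.g456750.v5.5, chromosome 10 from 5180737 to 5183457), for dehydroascorbate reductase, had 16.3, 11.1 and 12.3 FPKM at 1000 µM, against 20.3, 23.1 and 17.1 FPKM at 6 µM. All 3 libraries at 1000 µM lay below all 3 at 6 µM, with 1000 µM replicate 1 and 6 µM replicate 3 close to each other at the boundary. The mean FPKM at 1000 µM was 0.657 times that at 6 µM. Its log2 difference was -0.58 ± 0.16 (standard error), with an interval from -0.95 to -0.21, or 0.495 to 0.858 times the 6 µM level (limma unadjusted p = 0.00665, adjusted p = 1.00). By p it ranked 70 of 12543 tested genes, so that 0.558% of tested genes had a p this small or smaller, and 54 of those 70 were lower at 1000 µM. A log2 difference as low as that of DHAR1, or lower, was found in 37 of the 12543 tested genes. The p-values were not evenly spread, with 2.82% of tested genes at an unadjusted limma p under 0.05. Evenly spread p-values would put 83.5 genes at or below the p of DHAR1, so by this rough guide the rank does not set DHAR1 apart. A two-sided exact permutation test of this single gene gave p = 0.1, the smallest that 3 against 3 libraries allow. With library quality weights, of which 1000 µM replicate 1 received 6.58 and 1000 µM replicate 3 received 0.267, the log2 difference of DHAR1 was -0.30 with an unadjusted p of 0.0700.

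The level of DHAR1 can also be read against its partner enzyme within each library. The ratio of DHAR1 to MDAR1 was 0.809, 0.508 and 0.789 in 1000 µM replicates 1, 2 and 3, against 1.29, 0.876 and 0.932 in 6 µM replicates 1, 2 and 3. Every 1000 µM library had a smaller ratio than every 6 µM library. DHAR1 is the numerator, so its own separation enters the ratio. The ratios of DHAR1 to GPX5 and to APX1, given under other observations, overlapped between the groups. The ratio to MDAR1 was chosen after its values were seen and is given as a description. The closest annotated genes to DHAR1, 130 and 176 bp away, averaged 14.3 and 1.71 FPKM and had log2 differences of 0.06 and -0.05.

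**Figure D2:**
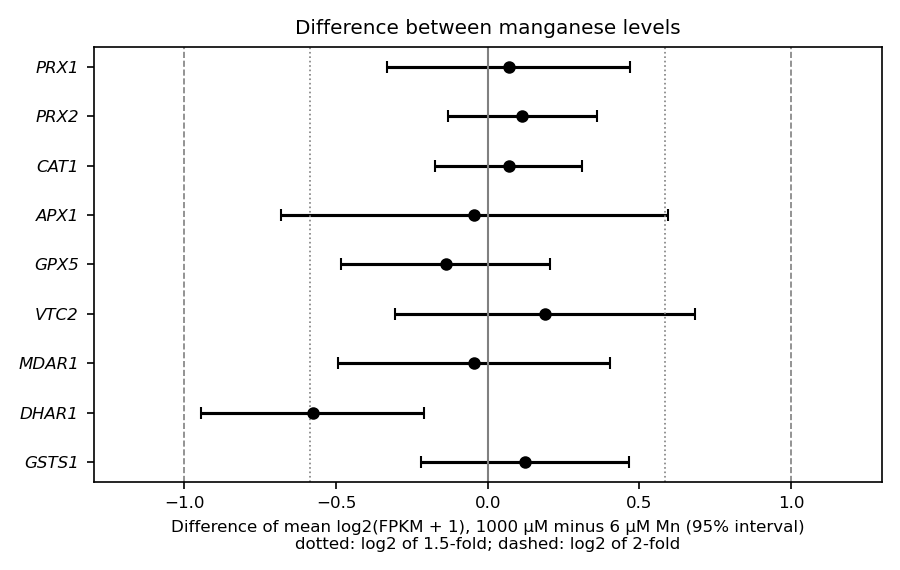
Difference of mean log2(FPKM + 1), 1000 µM minus 6 µM manganese (horizontal axis), with the 95% interval of limma for each of the 9 genes. Dotted and dashed lines mark 1.5-fold and 2-fold changes of FPKM + 1, not of FPKM. In FPKM the lower bound of DHAR1 was 0.495 times the 6 µM level, though it lies inside the dashed line. The interval of DHAR1, from -0.95 to -0.21, is the one that leaves out 0, and the APX1 interval is the widest.

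VTC2 (Cre13.g588150.v5.5, chromosome 13 from 3552575 to 3556962) encodes GDP-L-galactose phosphorylase, a controlling enzyme of ascorbate synthesis in plants and green algae. It had 24.2, 22.7 and 27.0 FPKM at 1000 µM, against 21.0, 30.5 and 15.3 FPKM at 6 µM. The 6 µM group held both the highest and the lowest library and enclosed the whole 1000 µM group. The coefficient of variation was 8.84% at 1000 µM and 34.6% at 6 µM, and this difference in spread was not tested. The log2 difference of VTC2 was 0.19 with an interval from -0.31 to 0.68, or 0.800 to 1.63 times the 6 µM level. Without 6 µM replicate 2 the log2 difference was 0.43 with an unadjusted limma p of 0.0288 (adjusted p = 1.00 after rounding), and without 6 µM replicate 3 it was -0.04. An annotated gene with a mean of 62.2 FPKM, above the 23.4 FPKM of VTC2, lies 95 bp from VTC2. The unknown use of strand in counting applies here too.

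GSTS1 (Cre16.g688550.v5.5, chromosome 16 from 3658366 to 3660578) encodes a glutathione S-transferase, one of a family that joins glutathione to reactive compounds, and is known in this alga for its response to singlet oxygen. It had 8.06, 5.94 and 8.56 FPKM at 1000 µM, against 8.04, 6.07 and 6.29 FPKM at 6 µM. Each group held a library near 6 FPKM and a library near 8 FPKM, so the groups overlapped. Its log2 difference was 0.12 with an interval from -0.22 to 0.47, or 0.837 to 1.44 times the 6 µM level.

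The size of change that 3 cultures per group leave possible was read from these intervals, which are not adjusted for the number of genes. For 6 of the 9 genes (PRX1, PRX2, CAT1, GPX5, MDAR1 and GSTS1) the interval allowed less than a 1.5-fold difference in FPKM, up or down, and for 8 less than a 2-fold one. The same held for 81.4% of all tested genes at 1.5-fold and for 97.8% at 2-fold. APX1 and VTC2 could have differed by slightly more than 1.5-fold. The lower bound of DHAR1 lay just past a 2-fold decrease, while its upper bound left a decrease to 0.858 times the 6 µM level.

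**Figure D3:**
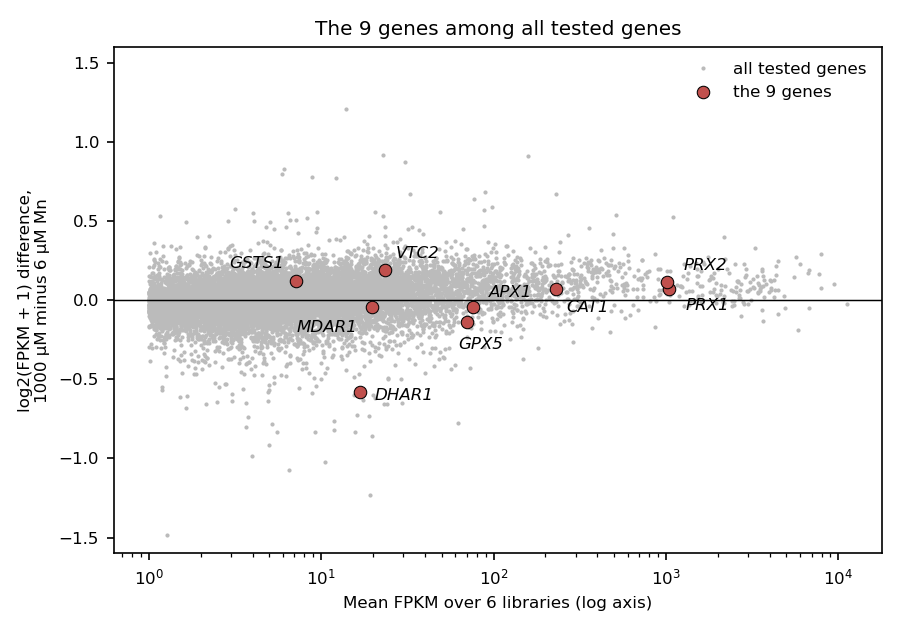
Difference of log2(FPKM + 1), 1000 µM minus 6 µM manganese (vertical axis), against the mean FPKM over 6 libraries (horizontal, log axis) for the 12543 tested genes in grey and the 9 genes in red. DHAR1 lies at -0.58 on the lower edge of the cloud, and the other 8 lie within it, between -0.14 and 0.19.

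Several of the 9 genes varied between libraries within each manganese level. In PRX1, APX1 and MDAR1 the lowest 2 of the 6 values belonged to 1000 µM replicate 3 and 6 µM replicate 1, the libraries that stood apart, a pattern seen in 21.4% of all tested genes. In GSTS1 these libraries were among the highest, with 1000 µM replicate 3 at the top. The pair that stood apart held the 2 highest values in 0 of the 9 genes, against 24.5% of all tested genes. The highest value of 5 genes, APX1, GPX5, MDAR1, DHAR1 and VTC2, was in 6 µM replicate 2, and that of PRX1, PRX2 and CAT1 was in 1000 µM replicate 2. The share of all tested genes with their highest value in these replicate 2 libraries was not counted, so this is only a description. The median deviation of the 9 genes from their own means was 0.06, 0.11 and -0.08 on the log2(FPKM + 1) scale in 1000 µM replicates 1, 2 and 3, and -0.12, 0.33 and -0.08 in 6 µM replicates 1, 2 and 3. Over all tested genes the same medians lay between -0.0085 and 0.015. The part of the library differences in the comparison of manganese levels was not tested, apart from the alternatives that left out, weighted or rescaled libraries.

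**Figure D4:**
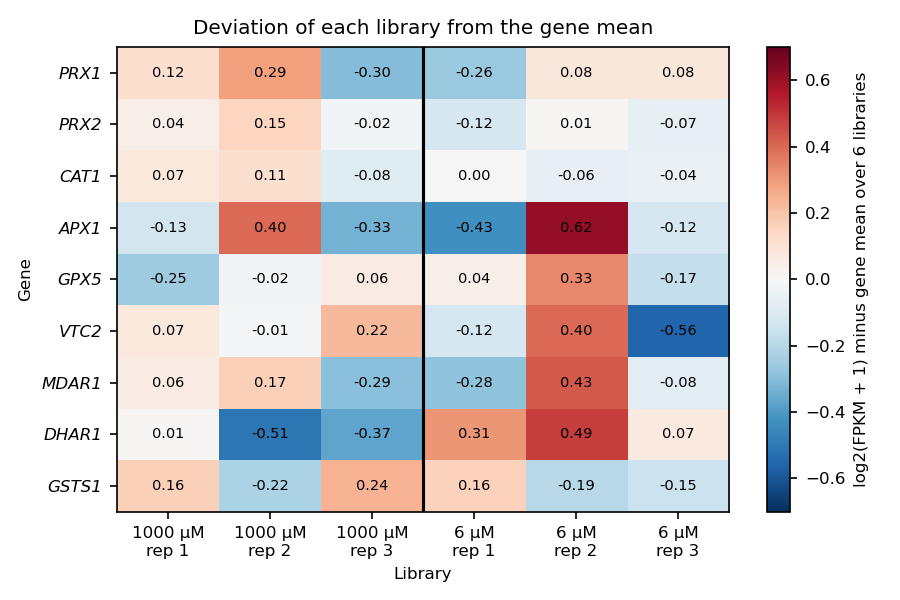
Deviation of log2(FPKM + 1) of each library (columns, 1000 µM manganese left and 6 µM right of the black line) from the mean of the 6 libraries for each gene (rows), with the colour scale in log2 units. Columns differ within each manganese level: 6 µM replicate 2 is high in APX1 (0.62), DHAR1 (0.49), MDAR1 (0.43) and VTC2 (0.40), and DHAR1 is the row whose values are lower at 1000 µM throughout.

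APX1 had the largest SD of the 9 genes over the 6 libraries, and the tested genes with the most similar pattern to it were Cre16.g661200.v5.5 and Cre17.g723750.v5.5. Likeness was measured as Pearson's r of log2(FPKM + 1) over the 6 libraries and was 0.999 and 0.995, with no p because these are the highest among all tested genes. Their log2 differences between manganese levels were -0.10 and -0.04, against -0.04 for APX1, and their unadjusted limma p was 0.833 and 0.821. An r above 0.9 to APX1 was reached by 319 genes.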

How the data were processed

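Illumina HiSeq libraries were made from poly-A selected RNA, per the labels' protocols. The authors deposited a table of FPKM values. The submitters' processing notes list Cuffdiff 2.2.1, STAR and CASAVA. The sources used here give no settings, build, strand or normalization option. Groups and replicate numbers come from sample titles, and 0 sample columns were left unused.

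Identifiers were matched by locus tag to the RefSeq gene table of assembly Chlamydomonas_reinhardtii_v5.5 (17738 of 17741), which gave positions and no symbols. The planned counts of other pathway genes, by 20 symbols (0 matched) or by protein similarity, could not be made, and no sequences were at hand.

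The 12543 genes averaging 1 FPKM or more over 6 libraries were tested on log2(FPKM + 1), which understates changes of low genes, with limma 3.58.1 in R 4.3.3 (lmFit, eBayes with trend, two-sided), Benjamini-Hochberg adjusted, threshold 0.05. Intervals are at 95% from moderated standard errors. Bounds in FPKM were obtained by adding them to the 6 µM mean of log2(FPKM + 1) and transforming back. The test was checked on simulated data with noise independent between genes and changes larger than that of DHAR1. That check does not cover library differences shared across genes. Figures used matplotlib 3.10.9. All 9 genes were named by a rule taking every member, and the members, lists and alternatives, though no rule for members uses a measured value, were chosen with earlier results of these data known.

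Alternatives were pseudocounts of 0.1 and 5, no filter, a minimum mean of 5 FPKM, 3 scalings (same total, quantile, median-of-ratios), a replicate block, eBayes without trend or robust, library quality weights, leaving out each library, and omitting the pair of libraries set apart.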

Additional observations from a re-analysis of the deposited data

How the results depend on the processing

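In all 18 alternatives 0 of the 9 genes had an adjusted p under 0.05, and DHAR1 was lower at 1000 µM in each of them. GPX5 and GSTS1 kept their signs too, but neared 0 without 6 µM replicate 2 (GPX5) or 1000 µM replicate 3 (GSTS1). The log2 difference of DHAR1 ran from -0.73 to -0.30 and its unadjusted p was under 0.05 in 17 of 18 alternatives, with limma adjusted p from 0.529 to 1.00. The count of 1 gene at an unadjusted p under 0.05 became 0 with library quality weights, where the share of all tested genes past that p was 10.1% in place of 2.82%. It was 1 to 2 when 1 library was left out, with 2 (DHAR1 and VTC2) without 6 µM replicate 2, where that share was 2.73%. The count of 1 gene with no overlap between groups became 4 with both libraries that stood apart left out and was 1 to 4 when 1 was left out (4 without 1000 µM replicate 3, 3 with 6 µM replicate 2 omitted, and 2 with 1000 µM replicate 2 omitted). Separation is easier with fewer libraries: the share of all tested genes without overlap was 34.7% with both left out, and 18.6%, 14.6% and 15.7% with 1000 µM replicate 3, 6 µM replicate 2 and 1000 µM replicate 2 omitted. Over all tested genes, 0 passed the adjusted threshold. This became 2 with the same FPKM total, 26 with quality weights, 3 without both libraries and 0 to 2 when 1 was left out (2 without 6 µM replicate 1 and 1 with 1000 µM replicate 3 omitted).

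Some directions near 0 turned with scaling, with quality weights or when 1 library was left out, and the cause was not tested. PRX1 was at -0.0194 and CAT1 at -0.0188 with the same total, and PRX1 was at -0.0547, CAT1 at -0.0683 and PRX2 at -0.0036 after quantile normalization. MDAR1 was at 0.0351 with quality weights. With the same total the median difference of all tested genes moved to -0.06. When 1 library was left out, PRX1 ranged from -0.0578 to 0.24, APX1 from -0.27 to 0.25, MDAR1 from -0.20 to 0.16, GPX5 from -0.26 to -0.0066, GSTS1 from 0.03 to 0.26 and VTC2 from -0.0432 to 0.43. Libraries that share a number (1, 2 and 3) correlated across genes at -0.40, 0.51 and -0.50 in their deviations from the group mean, which does not make the numbers pairs. With a replicate block 0 of the 9 genes passed the adjusted threshold and DHAR1 had an unadjusted limma p of 0.00974, the block leaving every mean difference as it was by construction. The counts of related genes were not run for want of protein sequences. The unknown depth gives no counting interval for any value.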

Other observations

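The 9 genes together held 0.370%, 0.372% and 0.325% of the summed FPKM in 1000 µM replicates 1, 2 and 3, and 0.352%, 0.363% and 0.361% in 6 µM replicates 1, 2 and 3. The lowest share belonged to 1000 µM replicate 3, and the groups overlapped. PRX1 and PRX2 supply most of this sum.

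DHAR1 and GPX5 lie 253 kb apart on chromosome 10, and their ratio within a library was 0.280, 0.162 and 0.170 in 1000 µM replicates 1, 2 and 3 and 0.284, 0.263 and 0.276 in 6 µM replicates 1, 2 and 3. In 1000 µM replicate 1 it lay inside the 6 µM range, and in the other two 1000 µM libraries it lay below it. The ratio of DHAR1 to APX1 was 0.246, 0.115 and 0.214 at 1000 µM and 0.378, 0.206 and 0.255 at 6 µM, and these groups overlapped. These ratios were chosen after the values were seen and were not tested.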
